A study of Bos taurus with 6 samples.

Results

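The genes described here are targets of the transcription factor NRF2 and enzymes that remove reactive oxygen species, measured by mRNA sequencing in primary bovine myoblasts. Of 31 listed genes, 11 had a name that could be paired with an identifier of the deposited table, out of 26332 mRNAs in all. The pairing came from the gene names in a supplementary sheet of the study, which lists DE mRNAs alone. The 11 genes were thus chosen by the authors' adjusted P-values for the same contrast, so their difference between the groups is a description and was not tested. The genes just outside that threshold carry no name in the sheet as listed, and their values cannot be set beside those of the 11. In all, 1863 mRNAs could be given a name here. The paper reports more DE mRNAs than were named, so many DE mRNAs lack a name too. A missing name thus does not show that a gene was outside the threshold. The remaining 20 listed genes, among them NFE2L2, HMOX1, SRXN1, SLC7A11, TXN, GPX4, SOD2, CAT and SQSTM1, were not analysed here.

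NRF2, the product of NFE2L2, is held by KEAP1 and marked for degradation in unstressed cells. Oxidants and reactive compounds modify KEAP1, NRF2 then accumulates in the nucleus and binds antioxidant response elements with a small MAF partner. Its known targets make glutathione, reduce thioredoxin, detoxify quinones, export conjugates, store iron and supply NADPH.

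The RSV group consisted of 3 cultures of myoblasts from fetal longissimus dorsi muscle, differentiated for 4 days in medium that held resveratrol at 20 μM. The control group consisted of 3 cultures of the same kind that received the solvent DMSO. The study's methods name independent experiments for each group and do not say whether the cultures came from separate fetuses. Any spread given below is that between these cultures, with no statement on animals.

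The deposited table holds mean normalized read counts per group, that is, reads divided by the size factor of their library. Reads of single libraries were recovered from these means, and they summed to between 10667806 and 12795686 per library over the mRNAs recovered. The recovered libraries have no replicate number. They are named A, B and C within a group by falling size factor, and equal letters in the 2 groups do not pair them. Library RSV-C stood apart: on log10(normalized reads + 1) of 14683 mRNAs, the squared Pearson correlation was 0.985 between RSV-A and RSV-B, 0.962 and 0.945 between these and RSV-C, and 0.984 to 0.985 between DMSO libraries. Genes are not replicates, so these correlations describe the libraries and carry no test. Values for the listed genes are therefore given with and without RSV-C.

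Of the 11 genes, 10 had higher group means in RSV and TKT had a lower one. Single libraries could be read for 10 of them, with 166 to 11069 reads per library, and for FTL the group means alone. In these 10 genes the RSV libraries did not overlap with the DMSO libraries, 9 lying above and 1 below. Over the 14683 mRNAs tested, the RSV libraries lay wholly above the DMSO libraries in 27.1% and wholly below in 26.1%. By limma voom with Benjamini-Hochberg adjustment 9 of the 10 genes were called higher and 1 lower, where 16.7% of the tested mRNAs were called higher and 17.0% lower. Of 4960 calls 2458 were thus higher in RSV, and with library sizes from summed reads 2934 of 5003. A gene without a call by the authors has no name, and all 1733 named mRNAs tested were called here too. The calls of the 10 genes were thus certain, and nothing is read from these counts. The median log2FC of the 10 genes was 0.81. Over the tested mRNAs it was 0.01, and over the 1733 named mRNAs tested, which were chosen by the same calls, it was −0.39. Over the 790 named mRNAs higher in RSV it was 0.71, but this set leaves out genes lower in RSV, whereas the 10 genes include TKT. Of the 1733 named mRNAs tested, 45.6% were higher in RSV. The named mRNAs were called in either direction, with a median absolute log2FC of 0.69. The sign of their median thus follows the share that was higher. Without RSV-C the median of the 10 genes was 0.77. The listed genes were chosen with earlier results of these data known and had all been called by the authors. Nothing is therefore read from the medians either.

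**Figure D1:**
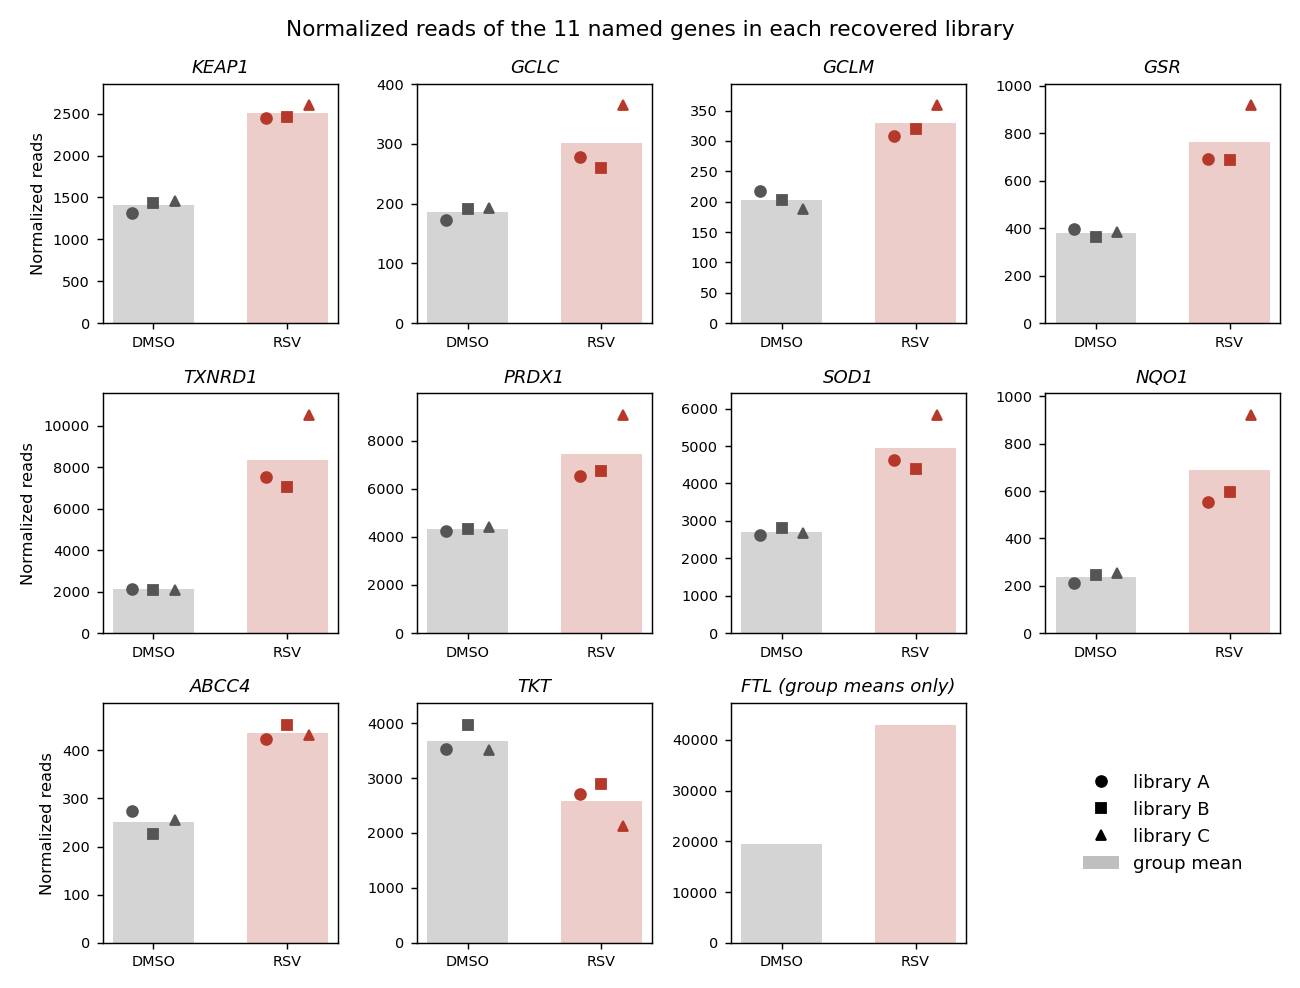
Normalized reads (vertical axes, each starting at 0) of the 11 named genes in DMSO and RSV, with 1 point per recovered library and bars for the group means. The RSV libraries lie above the DMSO libraries for 9 genes and below them for TKT, and FTL has group means alone.

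KEAP1 (ENSBTAG00000003543), the adaptor through which a ubiquitin ligase binds NRF2, had 2451, 2454 and 2597 normalized reads in RSV-A, RSV-B and RSV-C. In DMSO-A, DMSO-B and DMSO-C it had 1319, 1431 and 1463. The RSV libraries lay close together, with a coefficient of variation (CV) of 3.34% (n = 3), and the lowest of them was 1.68-fold above the highest DMSO library. The log2FC was 0.83 (standard error 0.06) and 0.81 without RSV-C.

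Glutamate-cysteine ligase, which carries out the rate-limiting step of glutathione synthesis, is made of the catalytic subunit GCLC and the modifier subunit GCLM. GCLC (ENSBTAG00000015571) had 278, 260 and 364 normalized reads in RSV-A, RSV-B and RSV-C and 172, 191 and 193 in DMSO-A, DMSO-B and DMSO-C. GCLM (ENSBTAG00000007842) had 309, 319 and 359 normalized reads in RSV, in the same order, against 217, 202 and 187 in DMSO. Both subunits were thus higher in each RSV library than in any DMSO library, with log2FC values of 0.68 (standard error 0.15) for GCLC and 0.70 (standard error 0.11) for GCLM. The difference between these 2 values is smaller than either standard error. RSV-C was the highest library for both, and without it the values were 0.54 and 0.63.

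GSR (ENSBTAG00000007115), the reductase that returns oxidized glutathione to its reduced form at the expense of NADPH, had 692, 685 and 916 normalized reads in RSV and 394, 362 and 385 in DMSO. RSV-C was again the highest, and no DMSO library came near the lowest RSV library. The group mean in RSV was 764 ± 132 (SD, n = 3) against 380 ± 16.8 (SD, n = 3), a ratio of 2.01. The log2FC of GSR was 0.99 (standard error 0.13) and 0.86 without RSV-C.

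TXNRD1 (ENSBTAG00000013912), the cytosolic selenoenzyme that reduces thioredoxin, showed the largest fold among the 11 genes. It had 7508, 7046 and 10501 normalized reads in RSV-A, RSV-B and RSV-C against 2140, 2086 and 2073 in DMSO-A, DMSO-B and DMSO-C. The DMSO libraries were nearly level, with a CV of 1.69%, whereas RSV-C exceeded the other RSV libraries. The lowest RSV library was 3.29-fold above the highest DMSO library, and the log2FC was 1.97 (standard error 0.14), or 1.79 without RSV-C.

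PRDX1 (ENSBTAG00000003642), a peroxidase that thioredoxin keeps reduced, had 6534, 6730 and 9055 normalized reads in RSV against 4257, 4342 and 4392 in DMSO. No RSV library reached down to the DMSO range, and the spread lay almost wholly in RSV, with a CV of 18.8% against 1.58% in DMSO. Its log2FC was 0.76 (standard error 0.12) and 0.62 without RSV-C. SOD1 (ENSBTAG00000018854), the copper-zinc enzyme that turns superoxide into hydrogen peroxide, had 4623, 4377 and 5824 normalized reads in RSV and 2622, 2805 and 2664 in DMSO. Again RSV-C was the highest library, and the log2FC of SOD1 was 0.86 (standard error 0.10), or 0.74 without it.

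NQO1 (ENSBTAG00000020632) encodes the quinone reductase that serves as a common marker of NRF2 activity. It had 552, 595 and 920 normalized reads in RSV-A, RSV-B and RSV-C against 212, 245 and 253 in DMSO. The mean of RSV was 689 ± 201 (SD, n = 3) and that of DMSO 236 ± 21.8 (SD, n = 3), and NQO1 had the widest spread over the RSV libraries among the 10 genes, with a CV of 29.2%. The log2FC was 1.51 (standard error 0.23) with RSV-C and 1.28 (standard error 0.09) without it. ABCC4 (ENSBTAG00000032603), an exporter of organic anions and cyclic nucleotides, was highest in RSV-B. It had 424, 452 and 431 normalized reads in RSV and 274, 226 and 255 in DMSO, so that RSV-C lay between the other RSV libraries. Its log2FC was 0.79 (standard error 0.09) and 0.80 without RSV-C.

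FTL (ENSBTAG00000013343), the light chain of the iron store ferritin, had an authors' mean of 42914 normalized reads in RSV and 19575 in DMSO, a ratio of 2.19 and a log2 ratio of 1.13. Its reads were too many to be recovered for single libraries, so no spread is given, and the study's FPKM values of single samples were not used here. The decimal points of both means are the lowest pair that whole reads and the digits of the authors' log2 fold change allowed. Moving both points together leaves the ratio unchanged, but their place relative to each other rests on those digits.

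TKT (ENSBTAG00000003758), a transketolase of the non-oxidative pentose phosphate pathway, was the 1 gene of the 11 with lower reads in RSV. It had 2715, 2885 and 2132 normalized reads in RSV against 3521, 3964 and 3518 in DMSO. The highest RSV library lay below the lowest DMSO library by a factor of 1.22, the smallest gap among the 10 genes. The log2FC was −0.52 (standard error 0.11), and −0.39 without RSV-C, which was the lowest RSV library here. The other pentose phosphate and NADPH genes of the list, PGD, TALDO1 and ME1, have no name in the sheet and were not analysed here.

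The RSV libraries differed from each other in a manner that most of the genes higher in RSV shared. RSV-C was the highest RSV library for 8 of the 9 genes higher in RSV, and ABCC4 was the exception. For 6 of them, NQO1, TXNRD1, PRDX1, GCLC, GSR and SOD1, the level in RSV-C was 1.29 to 1.60 times the mean of RSV-A and RSV-B. The same ratio was 1.14 for GCLM, 1.06 for KEAP1 and 0.983 for ABCC4. Hence the CV over RSV libraries was 15.7% to 29.2% for the former 6 genes, whose CV over DMSO libraries was 1.58% to 9.21%. DMSO-C stood at 0.894 to 1.11 times the mean of DMSO-A and DMSO-B for the 10 genes.

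The higher place of RSV-C was not particular to these genes. Among the 790 named mRNAs with higher reads in RSV, RSV-C was the highest RSV library in 67.8%, and it was the lowest in 83.0% of the 943 with lower reads, as it was for TKT. The median ratio of RSV-C to the mean of RSV-A and RSV-B was 1.12 over those 790 mRNAs, with a 5th percentile of 0.770 and a 95th of 1.48, and 1.33 over the 9 listed genes. NQO1 lay above 97.3% of the 790 and TXNRD1 above 93.5%. Over the 14683 tested mRNAs the median ratio was 0.998. Relative to the DMSO mean, NQO1 stood at 2.34 in RSV-A, 2.52 in RSV-B and 3.89 in RSV-C, and TXNRD1 at 3.58, 3.36 and 5.00. KEAP1 stood at 1.75, 1.75 and 1.85, nearly the same in the 3 libraries.

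**Figure D2:**
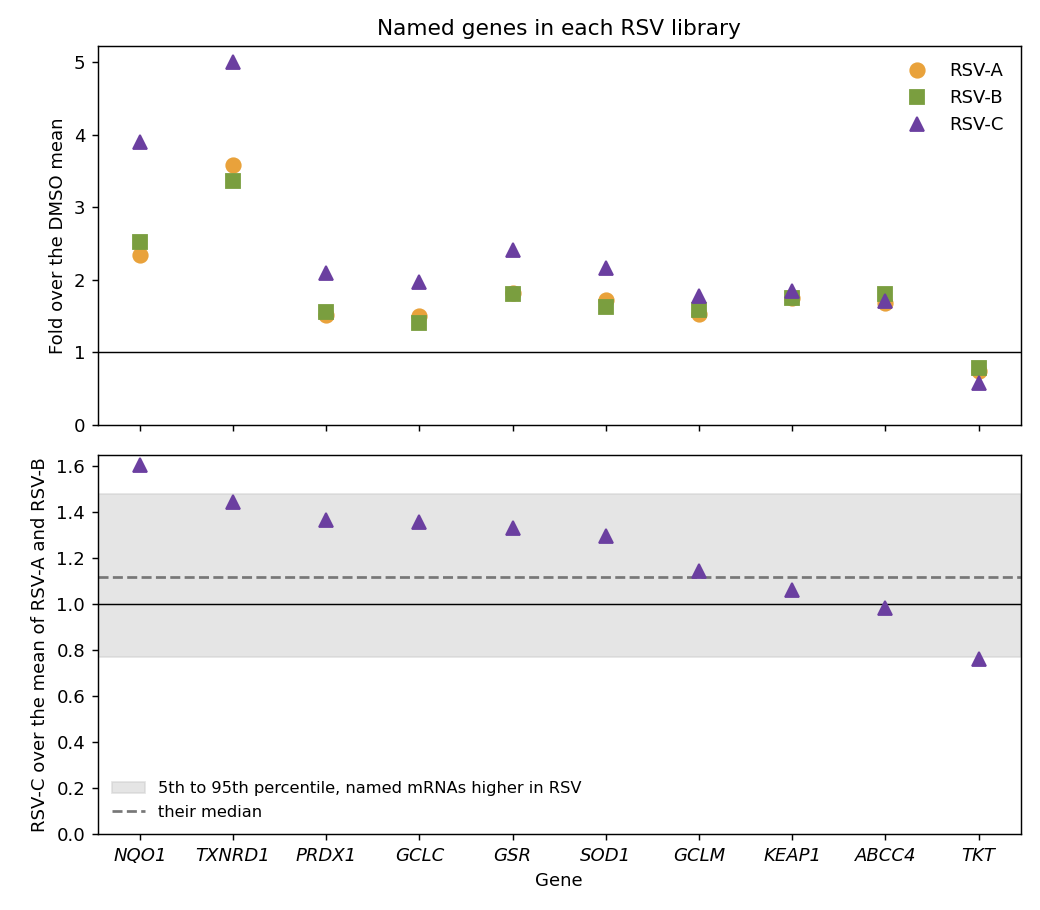
Upper panel, fold over the DMSO mean (vertical axis from 0) of the 10 genes with recovered reads in RSV-A, RSV-B and RSV-C. Lower panel, ratio of RSV-C to the mean of RSV-A and RSV-B, with the 5th to 95th percentile (0.770 to 1.48) and median (1.12) of the 790 named mRNAs higher in RSV. NQO1 at 1.60 lies above the band. TKT, at 0.761, is lower in RSV and does not belong to the mRNAs behind the band.

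A second list of 85 genes of the same pathways was described in the same way, and 19 of them had a name, again as DE mRNAs alone. Of these 19, 13 had higher reads in RSV and 6 lower, without overlap between the groups in any of them, and the median log2FC was 0.49 with or without RSV-C. Over the 14683 tested mRNAs the RSV libraries lay wholly above the DMSO libraries in 27.1% and wholly below in 26.1%. Of the 1733 named mRNAs tested, all of them called, 45.6% were higher in RSV. Nothing is read from the counts of the second list, from its median or from the counts by branch that follow. Values are given for the 12 with the highest mean reads. Of 10 listed regulators 4 had a name, 3 higher in RSV and 1 lower. MAFG and MAFK encode small MAF proteins, which pair with NRF2 on DNA. MAFG had 820 to 904 normalized reads in RSV and 576 to 679 in DMSO, with a log2FC of 0.47 (standard error 0.08), and MAFK had 1416 to 1719 against 942 to 1151, with 0.56 (standard error 0.10). NFE2L1, a related factor of the same family, had 8851 to 10296 against 7297 to 7555, a log2FC of 0.33 (standard error 0.07). DPP3, a peptidase that can bind KEAP1, was lower, with 976 to 1198 in RSV and 1545 to 1574 in DMSO.

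In the glutathione branch 4 of 5 named genes were higher. GSS, which completes glutathione after the ligase step, had 850 to 901 normalized reads in RSV and 568 to 668 in DMSO, a log2FC of 0.49 (standard error 0.07). GSTP1, a glutathione transferase, had 4989 to 5524 against 3504 to 3860, with 0.50 (standard error 0.06), and here RSV-C was the lowest RSV library. MGST1, a membrane-bound transferase, had lower reads, 935 to 1062 against 1389 to 1548, with a log2FC of −0.57 (standard error 0.07). GSTM1 lies outside the rule and was picked after its values were seen. It had 137, 123 and 188 normalized reads in RSV and 46.7, 51.1 and 44.0 in DMSO, a log2FC of 1.62 (standard error 0.23) and the largest of the second list, but its reads may be shared with near-identical genes of its family.

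TXNIP, which binds thioredoxin and blocks its activity, was also higher in RSV. It had 4898, 5002 and 3977 normalized reads in RSV-A, RSV-B and RSV-C against 1723, 1764 and 1795 in DMSO, and its log2FC was 1.39 (standard error 0.09). RSV-C was thus the lowest RSV library for TXNIP and the highest for TXNRD1, and without it the log2FC of TXNIP was 1.49. PRDX4, the peroxiredoxin of the endoplasmic reticulum, had 1748 to 1928 normalized reads in RSV against 2283 to 2367 in DMSO, a log2FC of −0.36 (standard error 0.06).

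Among iron and heme genes 3 of 4 were higher. The porphyrin transporter ABCB6 had 1189 to 1387 normalized reads in RSV and 715 to 774 in DMSO, with a log2FC of 0.75 (standard error 0.08). The heme transporter SLC48A1 and the iron exporter SLC40A1 lie outside the rule and were picked after their values were seen, with log2FC values of 1.01 (standard error 0.13) and 0.70 (standard error 0.07). TFRC, the receptor for iron-loaded transferrin, was lower, with 1343 to 1504 against 1827 to 1840 and a log2FC of −0.38 (standard error 0.06). Among detoxification and export genes 2 of 3 named genes were higher in RSV, AKR7A2 with a log2FC of 0.44 and PIR with 0.95, both outside the rule and picked after their values were seen. UGDH, which makes UDP-glucuronic acid, was lower, with 933 to 1269 normalized reads against 1647 to 1869 and a log2FC of −0.68 (standard error 0.11). ME3, a mitochondrial malic enzyme and the 1 named gene among 8 NADPH genes of the second list, was lower as well, from 118 to 195 against 241 to 268. Its log2FC was −0.65 (standard error 0.17), and −0.44 without RSV-C. ME3 also lies outside the rule and was picked after its values were seen.

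**Figure D3:**
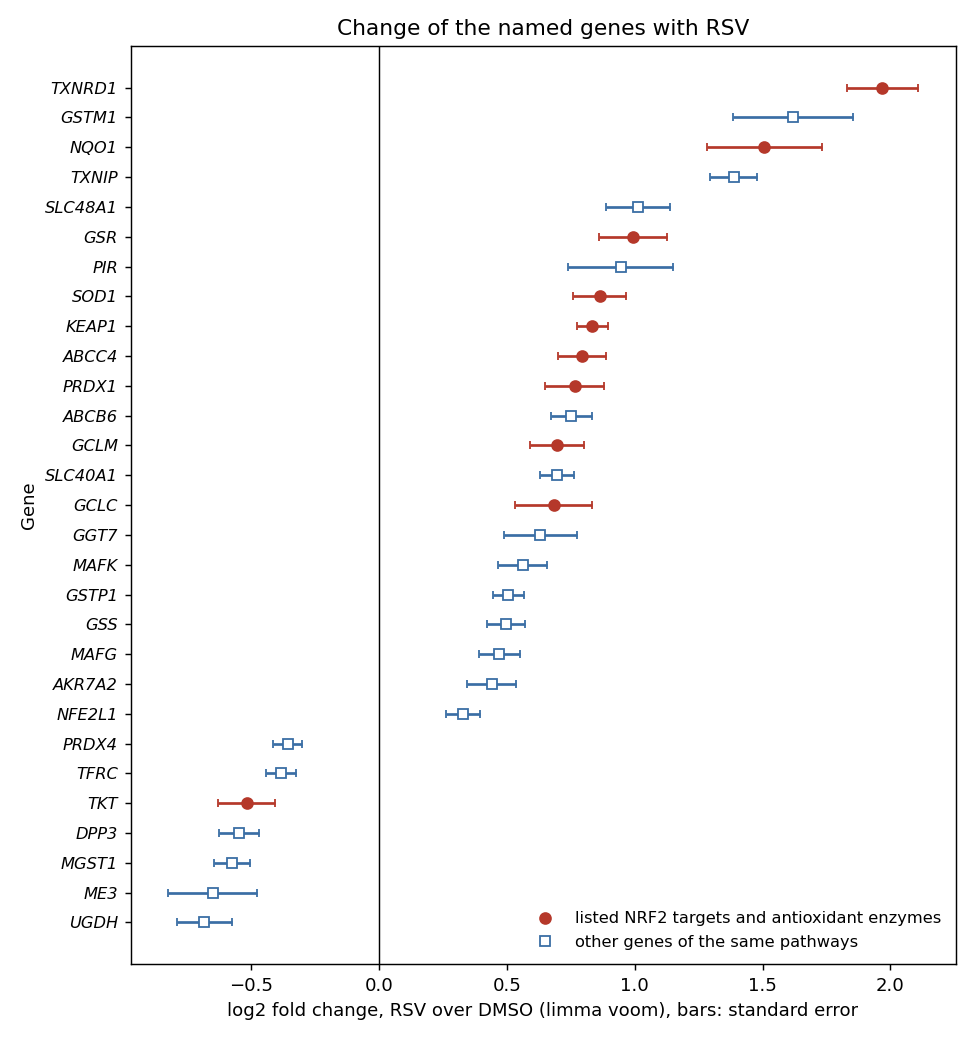
log2 fold change of RSV over DMSO from limma voom (horizontal axis, bars for the standard error) of the 10 listed genes with recovered reads (filled circles) and of the 19 named genes of the second list (open squares). TXNRD1 at 1.97 and NQO1 at 1.51 lie among the highest, and TKT at −0.52 among the 7 genes below 0.

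Markers of cell types with a name, which were DE mRNAs as well, also differed between the groups. Of 12 myogenic markers 3 had a name, MYH3, TNNT1 and MYMK, and all 3 were higher in RSV, with log2 ratios of the group means from 0.60 to 0.72 and summed means of 40556 in RSV and 24760 in DMSO. Of 7 fibroblast markers 4 had a name, PDGFRA, DCN, LUM and THY1, and these were lower in RSV, with log2 ratios from −0.82 to −0.42 and summed means of 65054 in RSV and 95909 in DMSO. None of the 3 endothelial, 3 adipocyte and 2 immune markers had a name, and the other markers, MYOD1 and DES included, were not analysed here. MYH3, DCN, LUM and THY1 have authors' means alone, with decimal points placed as for FTL, and MYH3 alone gave 34968 of the myogenic sum in RSV. In bulk RNA a smaller share of cells of a type and less RNA per cell cannot be told apart. The part of these shifts in the levels of the antioxidant genes was not tested.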

How the data were processed

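The mRNA of 3 RSV and 3 DMSO cultures was sequenced. The paper's methods give no aligner, counter or strand setting for mRNA, and the labels name Bowtie 0.12.9 for miRNA tags. The authors' deposited table, entered with the unit other, holds the mean normalized read count of each group, with no column for a single sample. It also holds the authors' log2 fold changes, P-values and calls, which were not used as results. Decimal points of most means were lost on export. Each mean was read as 3 whole reads divided by size factors, at the lowest decimal point allowing it with fewer than 0.05 combinations by chance (means up to 9000, and up to 60000 for listed genes). For FTL, MYH3, DCN, LUM and THY1, which lack unique reads, the digits of the authors' log2 fold changes helped to place the decimal points. For mRNAs with unique reads in both groups these digits served to check decimal points. They matched for 18434 of 18456 mRNAs, and the remaining 22 were moved by a factor of 10. Unique reads were obtained for 20113 of 20459 mRNAs with reads (98.3%). Reads were compared by limma voom (limma 3.58.1, R 4.3.3) with library sizes from the size factors and a minimum mean of 10 normalized reads, at an adjusted p-value under 0.05. The p-values set the difference between the groups against the spread between these cultures, with information on variance shared over mRNAs. Python 3.11.15, numpy 2.4.6, pandas 2.3.3, numba 0.67.0 and matplotlib 3.10.9 were used.

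In tests on simulated data, 976 of 1000 means gave unique reads, 972 of them right before the digit check. The levels simulated stayed below the RSV means of PRDX1, TXNRD1 and NFE2L1, and the size factors were known rather than estimated. For the RSV against DMSO comparison of 14683 simulated mRNAs, 167 of 200 with a log2 fold change of 1 were recovered and 8 others were called. All simulated mRNAs had the same dispersion and no library stood apart, so these rates need not hold for the real libraries.

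The members and both gene lists were chosen with earlier results of these data known. Genes named with values were the listed genes with a name and, of the second list, the 12 with the highest mean reads. Values of 6 further genes of the second list (GSTM1, SLC48A1, SLC40A1, ME3, AKR7A2 and PIR) are given outside this rule and were picked after they were seen. No genome build or promoter sequence matching the table was used, so no coordinates or motifs are given. FTL and PRDX1 may share reads with processed copies of the same sequence. Alternatives were limma on log2 values with another pseudocount, library sizes from summed reads, other minimum means, and each library left out in turn. For the listed genes the log2 ratio of the deposited group means was a further alternative.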

Additional observations from a re-analysis of the deposited data

How the results depend on the processing

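Under the 120 alternatives computed for the 10 genes with recovered reads, each log2FC kept its sign and stayed within 1 SD of its libraries. Where a library was left out, this outcome was nearly fixed in advance and gives no support. The groups did not overlap in these genes, and omitting 1 of 3 libraries moves an unweighted mean by less than that SD. Other minimum means change only which other mRNAs enter the fit, and the ratio of the group means rests on the same reads. These settings could hardly move a value either and give no support. FTL has group means alone and no alternative. The count of mRNAs called by limma voom was 4960. With single libraries omitted it ranged from 2447 without DMSO-C to 6176 without RSV-C, with 2603 without DMSO-A and 2697 without DMSO-B, and the cause was not tested. The calls higher in RSV numbered 2458, and from 1155 without DMSO-C to 3189 without RSV-C. Other settings moved the count of all calls to between 4528 and 5181, and that of calls higher in RSV to between 2208 and 2934. Leaving out RSV-C moved the log2FC of GCLC from 0.68 to 0.54 and that of TKT from −0.52 to −0.39. No paired analysis was possible because the recovered libraries carry no replicate number. The planned promoter motif search was not run, since no promoter sequences were at hand. The reads of FTL are too many to be split over libraries at the 15 digits deposited.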
